A study of Drosophila melanogaster with 36 samples.

Results

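The ageing of mature muscle was followed here in 6 of the 36 libraries of a poly-A RNA-seq series on Drosophila melanogaster, the 3 libraries of muscle from 45 d old adults against the 3 from 15 d old adults. The libraries were taken by their labels alone, and the muscle libraries of 3 d old flies were kept out of the fit. Both ages are of the same wild-type strain, given as WT (5905), with no other allele, driver or treatment named, and both were read as single ends of 100 nt. The labels call the tissue fly muscle. They give neither the sex or mating state of the flies, nor which muscle was taken, nor whether a library holds 1 animal or a pool, so p-values measure only the spread between libraries. Heads of the same strain and ages, also 3 libraries at each age, served to ask whether a change differed between tissues, and the series' 30 d muscle libraries are given as levels between both ages. The 3 d muscle libraries enter 1 alternative fit, and 3 d and 30 d heads and whole flies (WT, gcn5 loss-of-function or GCN5 overexpressing) were not used here.

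Muscle contracts when calcium leaves the sarcoplasmic reticulum, binds troponin on the thin filaments and lets myosin heads of the thick filaments pull on actin; the pump SERCA then returns the calcium to its store. The flight muscles that fill the fly thorax add giant elastic proteins and their own troponin and myosin partners, which let stretch trigger each beat, and they are packed with mitochondria fed by glycolysis, the glycerol phosphate shuttle and the citric acid cycle. Ageing of fly muscle is known for loss of flight and climbing, for swollen mitochondria and for deposits of damaged protein, which the proteasome and chaperones handle. Old flies are also known for high expression of antimicrobial peptides, which are made mainly in the fat body and released into the hemolymph that bathes the muscle.

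Genes received 3.00 to 3.68 M counts per library. Spearman correlations of log2 CPM (counts scaled to a common library size with TMM factors) were 0.983 to 0.989 within an age and 0.968 to 0.976 between ages, and replicates differed by more than sampling noise (chi-square per degree of freedom from 2.44 to 7.04). One library stood apart. In 45 d replicate 3, 36.6% of reads were tallied as not uniquely aligned, against 6.0 to 8.59% in the other 5. The same library held the highest summed heat shock and antimicrobial peptide levels of its age. It also held the lowest levels of the clock genes tim and per, but the highest of cry. Results for heat shock, clock, mitochondrial genome and antimicrobial peptide genes are given with and without it. So are the counts of cytochrome P450 and UDP-glycosyltransferase genes. The muscle myosin gene Mhc was present in every library, at 2584 to 3319 CPM, and the photoreceptor opsin gene ninaE lay between 0 and 10.1 CPM. Transcripts known from other organs were present too. The list of gut proteases and sugar hydrolases held 1.45 to 1.73% of counts, and Cyp4g1, a P450 of the hydrocarbon-making oenocytes, reached 11610 CPM, so the labelled tissue is not muscle fibres alone. In such bulk libraries, fewer cells of a type and less RNA per cell cannot be told apart.

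Of 8630 genes tested, 732 rose (8.48%) and 755 fell (8.75%) from 15 to 45 d, where rose and fell mean an adjusted p under 0.05 in edgeR's quasi-likelihood test. Changes of at least 2-fold were fewer, with 129 genes up and 67 down. The libraries of both ages did not overlap in CPM for 1503 genes that were higher at 45 d (17.4%) and 1456 that were lower (16.9%). The median log2 change of all genes was 0.01. Scaling by library size alone moved it to 0.15 and gave 1619 genes up and 429 down. Thus 79.1% of calls were then higher against 49.2% with TMM. Changes below are on the TMM scale. A list whose calls turned from mostly down to mostly up under library size alone is named as such. Medians close to 0 changed sign in further lists, which are not all named. Adding all 3 d and 30 d muscle libraries to the fit left 82 genes up and 68 down. Leaving out 15 d replicate 3 gave 412 up and 487 down, and leaving out 45 d replicate 1 gave 439 and 503.

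**Figure D1:**
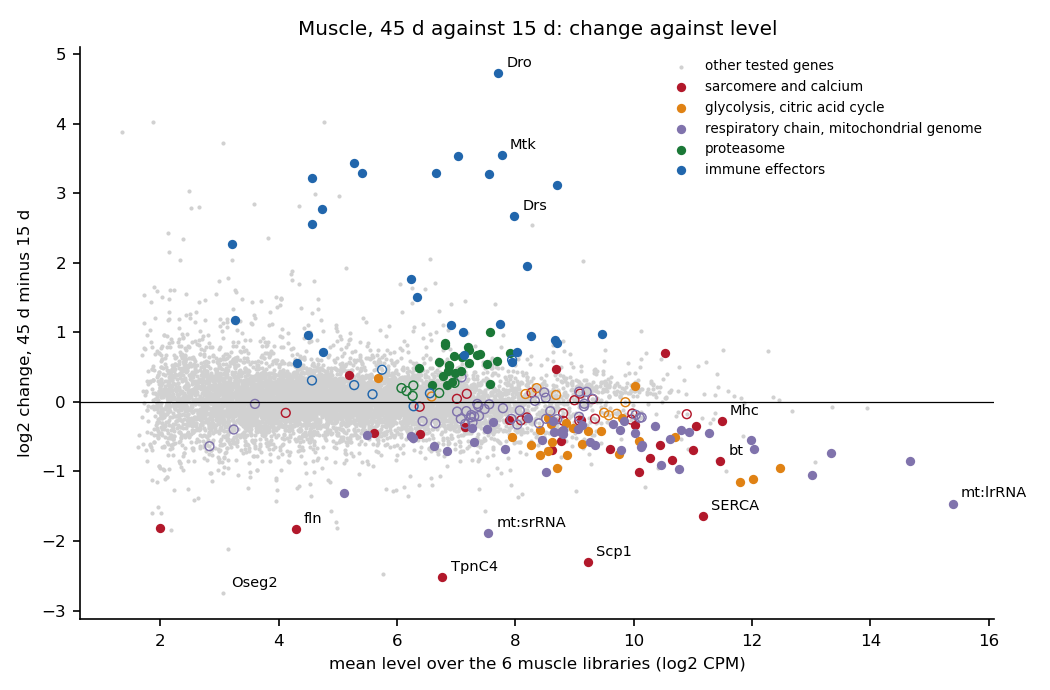
Log2 change in muscle from 15 to 45 d (y axis) against the mean level over the 6 libraries in log2 CPM (x axis) for all 8630 tested genes; coloured points are list members, filled where the adjusted p was under 0.05 and open where it was not. Immune effectors lie at the top with Dro at 4.73, proteasome genes lie above 0, and mt:lrRNA at -1.46 and SERCA at -1.64 lie below it.

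Among contractile genes, those of the thick filament mostly fell. Of 9 tested members 7 fell and none rose, with a median log2 change of -0.35 against 0.01 over all genes, of which 8.75% fell and 8.48% rose. The myosin heavy chain gene Mhc (2L:16766566-16788766, plus strand) read 2995, 3126 and 3319 CPM at 15 d and 2604, 2584 and 2589 CPM at 45 d, a log2 change of -0.28 ± 0.06 (± SE here and below, adjusted p = 0.00801) with no overlap between ages. Changes were larger in genes of the myosin filament's partners. The projectin gene bt, which encodes a giant elastic protein on chromosome 4, went from 3319, 3545 and 4044 CPM to 1946, 2169 and 1944 CPM (log2 change -0.85 ± 0.08, adjusted p = 5.12e-05). The myosin-binding proteins myofilin, encoded by Mf, and flightin, encoded by fln, changed by -0.83 ± 0.07 and -1.83 ± 0.21 (adjusted p = 1.99e-05 and 0.000152). For fln, needed for flight muscle thick filaments, the libraries read 30.7, 25.4 and 33.0 CPM at 15 d and 10.7, 8.54 and 5.46 CPM at 45 d, and every old library lay below every young one. The kinase-like titin relative Strn-Mlck fell by 0.62 ± 0.07 on the log2 scale (adjusted p = 0.000248). Prm, the paramyosin of the filament core, and sls, which encodes titin-like proteins, fell less, at -0.34 ± 0.08 and -0.35 ± 0.08 (adjusted p = 0.0135 and 0.0154). Both calls were lost without 15 d replicate 3 or 45 d replicate 1 (adjusted p = 0.0608 and 0.0612 for Prm, 0.0687 and 0.0735 for sls), and that on Prm also without 15 d replicate 2 (0.0601).

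The thin filament list was split. Of 13 tested members 4 fell and 2 rose, at a median of -0.24. Its largest change was in TpnC4, the troponin C that serves stretch activation in flight muscle. TpnC4 (2R:5503437-5507866, minus strand) read 133, 224 and 198 CPM at 15 d and 39.7, 21.8 and 34.7 CPM at 45 d, a log2 change of -2.52 ± 0.21 (adjusted p = 1.94e-05). The other flight muscle troponin C, TpnC41C, fell by 0.47 ± 0.08 on the log2 scale (adjusted p = 0.00246), and so did the actin-capping tropomodulin gene tmod, with 469, 485 and 502 CPM against 296, 323 and 278 CPM (log2 change -0.70 ± 0.08). In the other direction went Act57B, an actin of larval and other body muscles, from 983, 1279 and 1127 CPM to 1904, 1925 and 1695 CPM (log2 change 0.71 ± 0.09, adjusted p = 0.000438), and TpnC25D, a troponin C, whose call (log2 change 0.39 ± 0.12, adjusted p = 0.0434) held in 1 of the 6 fits without a library, that without 45 d replicate 3. The flight muscle actin Act88F did not pass the test, at 294.9 ± 84.5 CPM at 15 d and 323 ± 10.6 CPM at 45 d (mean ± SD, n = 3). Without 15 d replicate 1, 7 thin filament genes fell, and under library size alone 3 fell and 3 rose.

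At the Z disc and M line, 7 of 12 tested members fell and 1 rose. Fhos, a formin that assembles actin in sarcomeres, read 1088, 1665 and 1628 CPM at 15 d and 759.8, 797 and 629 CPM at 45 d (log2 change -1.003 ± 0.14, adjusted p = 0.000686). The Z disc PDZ genes Zasp66 and Zasp52 changed by -0.81 ± 0.07 and -0.69 ± 0.08, and Obsc, which encodes the M line protein obscurin, by -0.68 ± 0.09 (adjusted p = 1.94e-05, 0.000152 and 0.000409). Mlp60A, a muscle LIM protein gene, rose from 297, 364 and 369 CPM to 496, 464 and 466 CPM (log2 change 0.47 ± 0.09, adjusted p = 0.00396). Leaving out 15 d replicate 2, 15 d replicate 3 or 45 d replicate 2 each left 4 of these genes that fell.

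Calcium handling held the smallest adjusted p-values of all 8630 genes, those of SERCA and Scp1. SERCA, the pump that refills the sarcoplasmic reticulum (2R:23925077-23935884, minus strand), read 3304, 3354 and 3809.7 CPM at 15 d and 1180.1, 1136 and 1047 CPM at 45 d. Its log2 change of -1.64 ± 0.08 (adjusted p = 5.58e-07) left no overlap, and the 30 d libraries, at 1556, 1481 and 1481 CPM, lay between. Levels at 30 d come from a scaling with those libraries included, which moves the other values by at most 0.89%. The sarcoplasmic calcium-binding protein gene Scp1 fell further, from 908, 1002 and 1083 CPM to 222, 210.0 and 174 CPM, with 274, 297 and 312 CPM at 30 d (log2 change -2.30 ± 0.10, adjusted p = 5.58e-07). The ryanodine receptor RyR, the release channel of the store, fell by 0.56 ± 0.08 on the log2 scale (adjusted p = 0.000715). In all 5 of 9 tested members fell and none rose. Scp2, another binding protein, fell at -0.45 ± 0.09 (adjusted p = 0.00582), and the voltage-gated channel gene Ca-alpha1D at -0.36 ± 0.10 (adjusted p = 0.0346), a call lost without 15 d replicate 1, 15 d replicate 3, 45 d replicate 2 or 45 d replicate 3 (adjusted p from 0.0597 to 0.131). The list's summed share of raw counts went from 0.651 to 0.702% in young libraries to 0.343 to 0.384% in old ones.

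**Figure D2:**
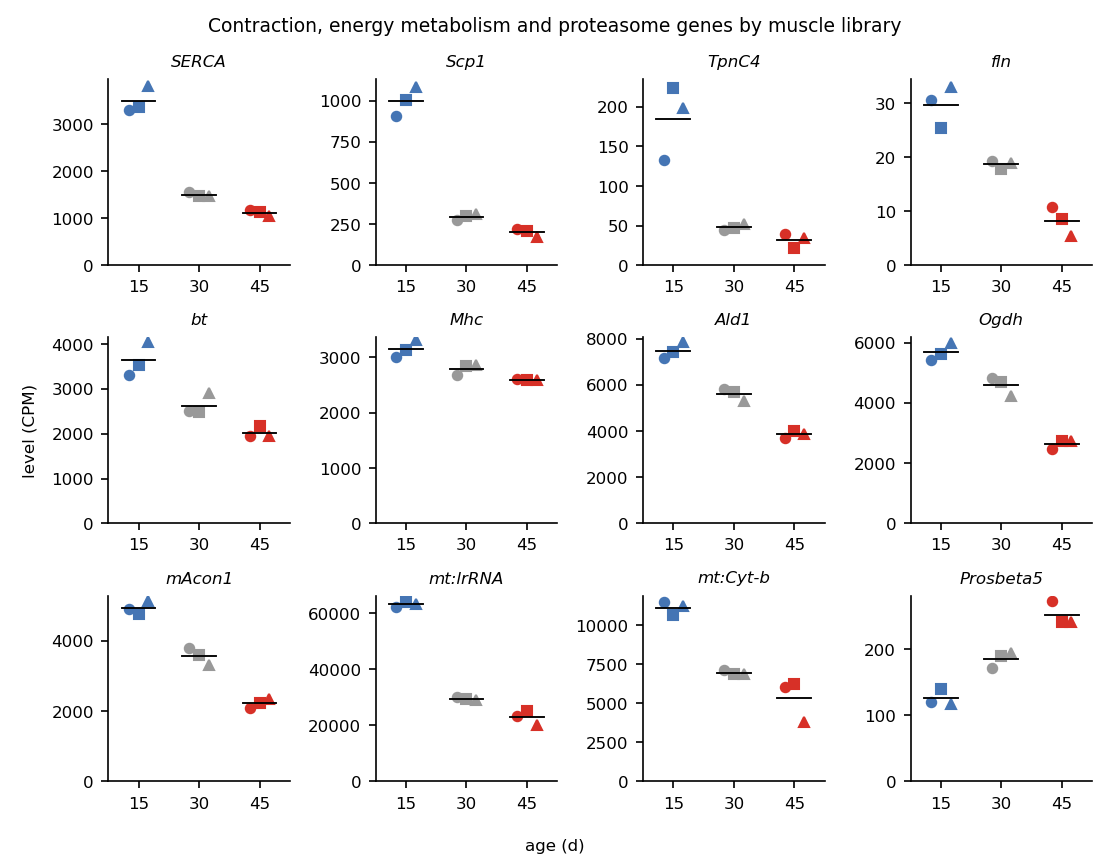
Level in CPM (y axis, from 0) of 12 genes of contraction, energy metabolism and the proteasome in each muscle library at 15, 30 and 45 d (x axis); circles, squares and triangles are replicates 1, 2 and 3 and the line is the mean of 3 libraries. For SERCA the 15 d libraries lie at 3304 to 3810 CPM and the 45 d libraries at 1047 to 1180 CPM, with the 30 d libraries between, and Prosbeta5 runs the other way.

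Fewer regulators of muscle identity passed. Of 11 tested members of the flight muscle and myogenic list 4 fell and none rose. The selector of fibrillar flight muscle, salm, read 52.8, 65.9 and 79.6 CPM at 15 d and 46.2, 35.7 and 34.7 CPM at 45 d (log2 change -0.76 ± 0.15, adjusted p = 0.00592). Lmpt, which encodes a muscle LIM protein, fell by 0.53 ± 0.07 on the log2 scale (adjusted p = 0.000401). Mef2, the main myogenic transcription factor, changed by -0.32 ± 0.08 (adjusted p = 0.0196) and did not pass without 15 d replicate 3 or 45 d replicate 1 (adjusted p = 0.0704 and 0.0528). The homeodomain factor gene hth changed by -0.30 ± 0.08 and did not pass without 15 d replicate 1, 15 d replicate 2 or 45 d replicate 1 (adjusted p = 0.0547, 0.0583 and 0.0886), the last leaving 2 genes of the list that fell. Of 7 receptors and scaffolds of the neuromuscular junction 2 fell, with nwk, a regulator of synaptic growth, at -0.35 ± 0.08 (adjusted p = 0.0103); 1 fell in the fits without a library other than that without 15 d replicate 2, and none with library size alone.

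Most of glycolysis fell. Of 15 tested enzymes 11 fell and 1 rose, with a median log2 change of -0.42. The aldolase gene Ald1 read 7156, 7423 and 7848 CPM at 15 d and 3719, 4020.2 and 3857 CPM at 45 d (log2 change -0.95 ± 0.06, adjusted p = 3.32e-06). Gpo1, the mitochondrial arm of the glycerol phosphate shuttle that flight muscle uses in place of lactate formation, went from 522, 554 and 574 CPM to 298, 287 and 268 CPM (log2 change -0.95 ± 0.07, adjusted p = 1.32e-05). Gapdh1 and the committing enzyme Pfk changed by -0.75 ± 0.07 and -0.71 ± 0.07 (adjusted p = 2.96e-05 and 0.000108). The exception was Ldh, lactate dehydrogenase, which rose from 51.1, 42.7 and 39.6 CPM to 56.1, 55.4 and 57.5 CPM (log2 change 0.34 ± 0.10, adjusted p = 0.0437), but that call held in 1 of 6 fits without a library, the fit without 15 d replicate 1 (adjusted p = 0.0137). Of 8 genes of glycogen and trehalose use, the glycogen phosphorylase gene Glyp fell by 0.60 ± 0.08 (adjusted p = 0.000352) and Glys, glycogen synthase, by 0.37 ± 0.09 (adjusted p = 0.0182), while Tps1, which makes trehalose, rose by 0.26 ± 0.07 (adjusted p = 0.0232, and 0.0595, 0.106, 0.0512 and 0.0537 without 15 d replicates 2 and 3 and 45 d replicates 2 and 3). The call on Glys was lost without 15 d replicate 2, 15 d replicate 3 or 45 d replicate 1 (adjusted p = 0.0694, 0.0902 and 0.0819).

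In the citric acid cycle and pyruvate dehydrogenase, 12 of 18 tested members fell and 1 rose, at a median of -0.41. Several consecutive enzymes of the cycle fell. Aconitase mAcon1 read 4906, 4759.6 and 5139 CPM at 15 d and 2085, 2236 and 2345 CPM at 45 d (log2 change -1.15 ± 0.06, adjusted p = 2.07e-06), and the next enzyme, isocitrate dehydrogenase, changed by -0.76 ± 0.08 in its subunit Idh3a (adjusted p = 9.42e-05). Ogdh, the oxoglutarate dehydrogenase that follows, went from 5431, 5636 and 5992 CPM to 2461, 2728 and 2745 CPM (log2 change -1.10 ± 0.07, adjusted p = 2.27e-06). No library of one age overlapped the other for these genes. The acetyltransferase subunit of pyruvate dehydrogenase, muc, changed by -0.77 ± 0.07 (adjusted p = 5.57e-05), and the malic enzyme Men was the 1 member that rose, by 0.23 ± 0.07 (adjusted p = 0.0353), a call lost without 15 d replicate 2, 15 d replicate 3, 45 d replicate 1 or 45 d replicate 3 (adjusted p from 0.0686 to 0.155).

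Nuclear genes of the respiratory chain fell in part. For complexes II to V, 22 of 35 tested members fell and none rose (median log2 change -0.35), and for complex I 12 of 33 fell, 21 did not pass and none rose (-0.22). Succinate dehydrogenase, shared by the cycle and the chain, held the largest change of the first list, with SdhA at 1719, 1836 and 1942 CPM in young and 932, 989 and 1001 CPM in old libraries (log2 change -0.91 ± 0.07, adjusted p = 9.43e-06) and SdhB at -0.64 ± 0.07 (adjusted p = 0.000119). The cytochrome c gene Cyt-c-p and the ATP synthase subunit gene ATPsynB changed by -0.69 ± 0.08 and -0.58 ± 0.07 (adjusted p = 0.000148 and 0.000343). In complex I, ND-B8 read 41.9, 43.4 and 59.5 CPM at 15 d and 17.18, 19.9 and 21.5 CPM at 45 d (log2 change -1.32 ± 0.16, adjusted p = 0.000246), ND-MLRQ changed by -1.01 ± 0.11 and ND-51, the subunit that takes electrons from NADH, by -0.40 ± 0.07. Without 15 d replicate 1, 19 complex I genes fell.

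Transcripts of the mitochondrial genome took 12.7 to 13.2% of raw counts in young and 5.46 to 7.82% in old libraries. Of 15 tested, 10 fell and none rose (median log2 change -0.64). The large ribosomal RNA mt:lrRNA read 62273, 64057 and 63226 CPM at 15 d and 23403, 25132 and 20231 CPM at 45 d, with 29978, 29530.3 and 28993 CPM at 30 d (log2 change -1.46 ± 0.07, adjusted p = 9.63e-07). The small one, mt:srRNA, changed by -1.89 ± 0.12 (adjusted p = 3.32e-06); with poly-A selection, both values are of the tailed forms only. Among the coding transcripts mt:CoI, a cytochrome oxidase subunit, went from 34009, 31156 and 35845 CPM to 18876, 22110.0 and 15174 CPM and mt:Cyt-b from 11508, 10640.2 and 11193 CPM to 6055, 6259 and 3785 CPM (log2 changes -0.85 ± 0.11 and -1.05 ± 0.15, adjusted p = 0.000409 and 0.00058). The lowest of the 6 values was in 45 d replicate 3 for all of these. Without that library, mt:CoI and mt:Cyt-b still fell, by 0.72 and 0.85 on the log2 scale (adjusted p = 8.16e-05 and 3.47e-06), and mt:ND2, which did not pass with it, rose by 0.83 (adjusted p = 0.000422). With a robust dispersion estimate 6 of the list fell.

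Carriers of the inner mitochondrial membrane followed, with 5 of 11 that fell and none that rose. The phosphate carrier gene Mpcp1 read 654, 770.2 and 789.8 CPM at 15 d and 294, 316 and 302 CPM at 45 d (log2 change -1.28 ± 0.08, adjusted p = 3.47e-06), and sesB, the ADP/ATP translocase, 3229, 3646 and 3570.4 CPM and 1829, 2000.5 and 1999 CPM (log2 change -0.84 ± 0.07, adjusted p = 1.72e-05). Leaving out 15 d replicate 2, 15 d replicate 3 or 45 d replicate 2 left 3 carriers that fell. Not all mitochondrial genes went this way. Of 71 mitochondrial ribosomal proteins 2 rose and 3 fell at a median of 0.01, with mRpS22 going from 41.9, 38.8 and 42.2 CPM to 62.5, 64.2 and 66.5 CPM (log2 change 0.65 ± 0.09), and under library size alone 10 rose and none fell. The 3 that fell became 1 without 45 d replicate 1. Of 13 mitochondrial quality control genes, 2 fell, the fusion gene Marf at -0.24 ± 0.07 and clu at -0.29 ± 0.09, both lost in 5 of the 6 fits without a library (kept without 15 d replicate 1), whereas under library size alone 3 of the list rose and none fell.

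Most of the proteasome, which degrades ubiquitin-tagged proteins, rose. Of 31 tested subunits 25 rose and none fell, with a median log2 change of 0.52 and higher CPM without overlap in 27, as in 17.4% of all genes. The chymotrypsin-like core subunit Prosbeta5 (2R:10819978-10821178, plus strand) read 119.8, 139.6 and 117 CPM at 15 d and 273, 241 and 242 CPM at 45 d, with no overlap (log2 change 1.01 ± 0.09, adjusted p = 3.59e-05), and its 30 d libraries read 172, 189.8 and 194 CPM. The core ring genes Prosalpha5 and Prosalpha3 changed by 0.82 ± 0.09 and 0.67 ± 0.07 (adjusted p = 0.000135 and 0.000151). In the regulatory particle, the lid subunit Rpn3 changed by 0.64 ± 0.07 and the base ATPase Rpt3 by 0.69 ± 0.08 (adjusted p = 0.000153 and 0.000203). Leaving out any 1 library left 20 to 24 subunits that rose.

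Chaperones that are expressed without stress rose in part, with 10 of 20 up and none down. The chaperonin ring, which folds actin and tubulin, held the clearest cases: CCT5 read 88.4, 74.0 and 64.9 CPM at 15 d and 162, 144 and 158 CPM at 45 d (log2 change 1.03 ± 0.10, adjusted p = 8.17e-05), and CCT2 changed by 0.61 ± 0.08 (adjusted p = 0.000312). The mitochondrial Hsc70-5 rose by 0.46 ± 0.07 (adjusted p = 0.00123). Without 15 d replicate 2 the list had 6 genes that rose and without 15 d replicate 3 it had 5. Xbp1, the factor of the unfolded protein response, rose from 635, 596 and 594 CPM to 835, 785 and 866 CPM (log2 change 0.45 ± 0.07, adjusted p = 0.00098). Of 21 autophagy genes Atg8a, which marks autophagosomes, was the 1 that fell, at -0.30 ± 0.07 (adjusted p = 0.0101), and none rose; under library size alone none fell and 3 rose, and without 15 d replicate 3 or 45 d replicate 1 the call on Atg8a was lost (adjusted p = 0.0502 and 0.0518).

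Ribosomal protein genes showed small changes. Of 80 tested proteins 26 rose and none fell, the median log2 change was 0.20, and 66 had higher CPM in every old library than in any young one, as 17.4% of all genes did. RpS27 read 447, 503 and 457 CPM at 15 d and 657, 602 and 654 CPM at 45 d (log2 change 0.44 ± 0.07, adjusted p = 0.00169), and RpS18 changed by 0.36 ± 0.07 (adjusted p = 0.00361). The count depends on the libraries and on scaling: it was 9 without 15 d replicate 1, 5 without 15 d replicate 3, 8 without 45 d replicate 1, 17 without 45 d replicate 2, 16 without 45 d replicate 3 and 76 with library size alone. Of 36 translation initiation factors 6 rose, with eIF3j at 0.37 ± 0.08 (adjusted p = 0.00673); 1 rose without 15 d replicate 3 and 3 without 45 d replicate 1.

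Innate immunity held the largest rises. Of 14 tested antimicrobial peptide genes 12 rose and none fell, with a median log2 change of 3.25. Dro (2R:14745961-14746714, plus strand), which encodes drosocin, a peptide against Gram-negative bacteria, read 21.4, 16.3 and 8.33 CPM at 15 d and 418, 126 and 662 CPM at 45 d (log2 change 4.73 ± 0.55, adjusted p = 0.000193), and 49.1, 92.3 and 175 CPM at 30 d. The antifungal peptide genes Mtk and Drs went from 33.3, 45.0 and 24.7 CPM to 394, 203 and 599.9 CPM and from 60.4, 77.9 and 66.9 CPM to 407, 278 and 619 CPM (log2 changes 3.55 ± 0.35 and 2.67 ± 0.24, adjusted p = 6.22e-05 and 3.27e-05). The diptericin gene DptB read 57.4, 28.04 and 20.4 CPM and then 302, 166 and 549.8 CPM (log2 change 3.28 ± 0.43, adjusted p = 0.000389). In each of these the young and old libraries did not overlap, and old libraries differed among themselves by more than 2-fold, with replicate 3 highest and replicate 2 lowest. DptA, Def, AttA, AttB, AttC, CecA1, CecA2 and the metchnikowin-like gene Mtkl rose by 2.78 to 3.53 on the log2 scale (CecA1 not without 15 d replicate 2 or 3, adjusted p = 0.0559 and 0.0658) and were, with Dro, Mtk, DptB and the larval serum protein gene Lsp1alpha (2.85 ± 0.40), the 12 largest rises among named genes with a mean log2 CPM of at least 3. AttA and AttB, and the cecropin genes, are close copies whose reads may be shared or lost. Without 45 d replicate 3 Dro, Mtk and Drs rose by 4.18, 3.14 and 2.33 (adjusted p = 7.94e-05, 1.12e-05 and 1.93e-06). With a robust dispersion estimate 5 of the 14 rose.

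Downstream of the Toll pathway, 12 of 14 Bomanin and Daisho genes rose at a median of 0.91. BomS1, a short secreted peptide needed for Toll defence, read 116, 161 and 124 CPM at 15 d and 294, 241 and 336 CPM at 45 d (log2 change 1.12 ± 0.14, adjusted p = 0.000277). BomS5 changed by 1.505 ± 0.24, and its lowest young library, replicate 1 at 21.1 CPM, lay below the others of its age at 56.1 and 48.0 CPM. Without 15 d replicate 3, 45 d replicate 1 or 45 d replicate 3, 8 of the list rose, and with a robust dispersion estimate 4 did. Peptidoglycan recognition proteins, which sense or cut bacterial walls, rose in 6 of 9 cases. The secreted recognition protein gene PGRP-SD read 43.2, 32.3 and 26.7 CPM and 118, 92.7 and 133 CPM (log2 change 1.76 ± 0.17, adjusted p = 4.69e-05), and the amidases PGRP-SB1 and PGRP-SC2, of which the latter damps the response in the gut, changed by 1.95 ± 0.22 and 2.56 ± 0.29 (adjusted p = 0.000169 and 0.000181). Of the pathways' own signalling genes 4 of 24 rose. Rel, the NF-kappaB factor of the Imd pathway, went from 188, 194 and 166 CPM to 278, 241 and 353 CPM (log2 change 0.67 ± 0.12, adjusted p = 0.00359), and it was the 1 gene left without 15 d replicate 3 or 45 d replicate 3; 2 rose without 15 d replicate 1, 15 d replicate 2 or 45 d replicate 1. Among serpins, which check the protease cascades of Toll and melanisation, 6 of 13 rose and 1 fell, with Spn27A at 0.49 ± 0.07 (adjusted p = 0.000686). Of 4 stress-induced Turandot genes none passed edgeR's test, DESeq2 or an unadjusted p under 0.05, though 1 rose without 45 d replicate 2, TotX and TotC standing at 0.21 ± 0.17 and 0.07 ± 0.23. The summed level of the fat body markers was 7146, 6849 and 6781 CPM in young and 6723, 6772 and 7886 CPM in old libraries, which overlap, with 45 d replicate 3 highest. Most of each sum was 1 gene, apolpp, at 5738, 5567 and 5344 CPM in young and 5340, 5380 and 6304 CPM in old libraries. As a share of raw counts the list held 0.642 to 0.686% and 0.707 to 0.818%. Of 8 tested 3 rose and 1 fell, but 1 rose without 45 d replicate 1 and, of the 3, CG3699 lost its call in 5 of the 6 fits without a library. Hemocyte markers summed to 1379 to 1699.9 CPM in young and 1258 to 1357 CPM in old libraries. The part of these cells in the immune rise was not tested.

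For heat shock and clock genes the result turned on 45 d replicate 3. Hsp68, an inducible chaperone, read 322, 430.4 and 182 CPM at 15 d and 58.0, 41.4 and 862 CPM at 45 d, and Hsp26 read 190.3, 272 and 128 CPM and 39.7, 38.0 and 463 CPM. Neither passed the test with all 6 libraries (log2 changes 0.04 ± 0.83 and -0.13 ± 0.72), and none of 9 inducible heat shock genes did, in edgeR's test, in DESeq2 or at an unadjusted p under 0.05. Without that library, 7 of the 9 fell, Hsp68 by 2.63 ± 0.30 and DnaJ-1 by 1.56 ± 0.20 (adjusted p = 0.000115 and 0.000219), and the small heat shock genes Hsp23, Hsp26, Hsp27 and Hsp67Bc fell as well, Hsp26 by 2.33 ± 0.26 (adjusted p = 0.000105). The 30 d libraries, at 885, 971 and 1069.8 CPM for Hsp68, lay above all 15 d libraries. The small heat shock gene l(2)efl, which is active in muscle, rose in either case, from 144, 164 and 143 CPM to 249, 299 and 333 CPM (log2 change 0.97 ± 0.11, adjusted p = 0.000152). The clock repressor genes tim and per read 75.9, 91.3 and 161 CPM and 336, 461 and 72.3 CPM, and 20.1, 22.5 and 29.6 CPM and 57.7, 64.2 and 21.2 CPM. No clock gene of 9 passed edgeR's test with all libraries (3 had an unadjusted p under 0.05 and DESeq2 called 1), while without 45 d replicate 3 tim, per, cwo and vri rose by 1.85, 1.32, 0.73 and 0.61 (adjusted p = 0.000195, 8.00e-05, 0.000195 and 0.00492). The hour of collection is not in the labels, and neither it nor the handling of that library was tested.

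**Figure D3:**
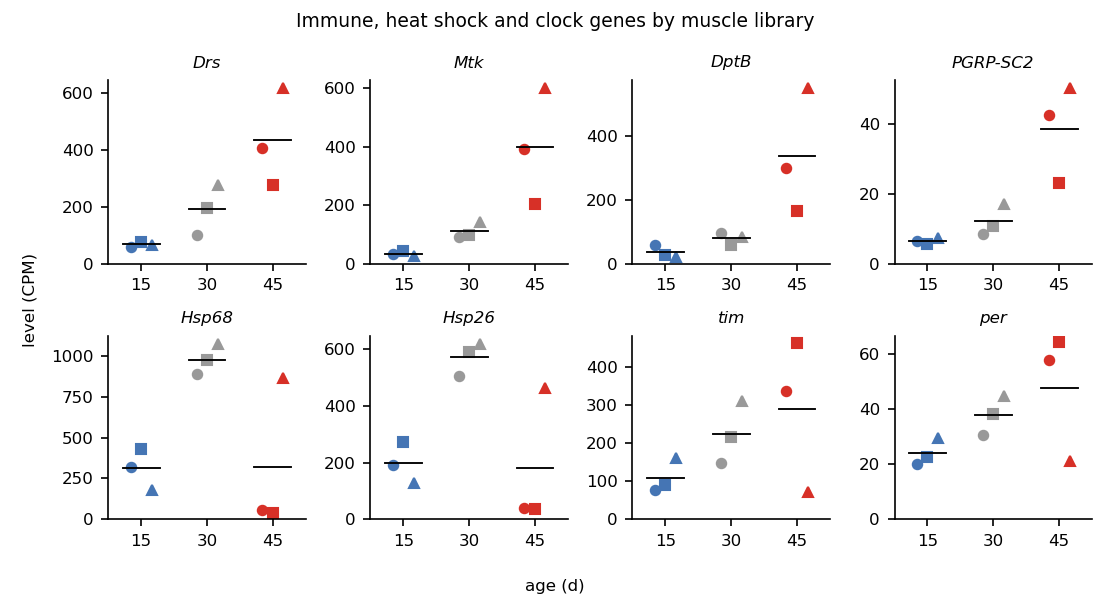
Level in CPM (y axis, from 0) of 4 immune, 2 heat shock and 2 clock genes in each muscle library at 15, 30 and 45 d (x axis); circles, squares and triangles are replicates 1, 2 and 3 and the line is the mean of 3 libraries. The 45 d triangle, replicate 3, is the highest of its age for Hsp68 (862 CPM) and Drs (619 CPM) and the lowest for tim (72.3 CPM).

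Genes of detoxification and metal handling rose in several families. Of 28 glutathione S-transferases 6 rose and none fell. GstD9 went from 32.3, 42.7 and 39.4 CPM to 77.6, 68.3 and 73.5 CPM (log2 change 0.94 ± 0.11, adjusted p = 0.000181) and GstD1, which conjugates insecticides and lipid peroxides, changed by 0.58 ± 0.08 (adjusted p = 0.000385); 3 rose without 15 d replicate 3. Of 15 antioxidant genes 3 rose. Trxr1, the thioredoxin reductase that stands in for glutathione reductase in flies, read 319, 318 and 318 CPM at 15 d and 461, 477 and 499.7 CPM at 45 d (log2 change 0.59 ± 0.07, adjusted p = 0.000177), and Gtpx, a gene of the glutathione peroxidase family, changed by 0.47 ± 0.08 (adjusted p = 0.00166). Of 10 genes for metal binding and iron 5 rose. The metallothioneins MtnA, MtnD and MtnE changed by 0.62 ± 0.13, 2.04 ± 0.33 and 1.496 ± 0.21 (adjusted p = 0.00651, 0.00155 and 0.000553), and Tsf1, the hemolymph transferrin, by 0.73 ± 0.13 (adjusted p = 0.00333). With a robust dispersion estimate 3 of this list rose. Cytochrome P450 genes went both ways, at shares near those of all genes. Of 58 tested 5 were up (8.62%) and 6 down (10.3%), against 8.48% and 8.75% over all genes. Cyp4g1 fell from 10674, 11610.0 and 11007 CPM to 5701, 7112 and 5553 CPM (log2 change -0.86 ± 0.09, adjusted p = 8.79e-05). The P450 counts changed with the libraries. They were 2, 3 and 1 up without 15 d replicates 1, 2 and 3, and 1 up without 45 d replicate 1 or 2. There were 3 down without 15 d replicate 2 or 3, and 2 down without 45 d replicate 1. Without 45 d replicate 3, 4 were up and 9 down. With library size alone 13 were up and 2 down.

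Fat synthesis and storage genes rose in part. Of 8 genes of fatty acid synthesis 5 rose and 1 fell. The fatty acid synthase gene FASN1, of the fat body, read 2621, 1862 and 2025 CPM at 15 d and 3443, 3390.1 and 4093 CPM at 45 d (log2 change 0.75 ± 0.12, adjusted p = 0.00119), and its activator SREBP changed by 0.52 ± 0.07 (adjusted p = 0.0007). FASN2, the synthase of oenocytes, went from 293, 311 and 289.9 CPM to 157, 189 and 164 CPM (log2 change -0.81 ± 0.09, adjusted p = 0.000109), the direction of the oenocyte gene Cyp4g1. Leaving out 15 d replicate 2, 15 d replicate 3 or 45 d replicate 1 left 3 genes of this list that rose. Lsd-1, the perilipin that coats lipid droplets, rose by 0.62 ± 0.12 (adjusted p = 0.00509). Lsp1beta fell from 275, 158 and 269 CPM to 84.3, 98.1 and 112 CPM (log2 change -1.26 ± 0.18, adjusted p = 0.000731) while the related storage protein gene Lsp1alpha rose. The prophenoloxidases of crystal cells, PPO1 and PPO2, fell together, with PPO1 at 176, 107 and 118 CPM and 64.1, 56.9 and 52.7 CPM (log2 changes -1.20 ± 0.17 and -1.20 ± 0.20, adjusted p = 0.000553 and 0.00153), whereas the plasmatocyte gene Hml read 643, 597 and 585 CPM and 582, 542 and 584 CPM and did not pass (adjusted p = 0.399).

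Of 22 tested markers of neurons and synapses 15 fell, 7 did not pass and none rose (median log2 change -0.40); 10 fell under library size alone. The vesicle calcium sensor gene Syt1 read 375, 377 and 397 CPM at 15 d and 285, 287 and 234 CPM at 45 d (log2 change -0.51 ± 0.09, adjusted p = 0.00211), the sodium channel gene para changed by -0.58 ± 0.08 and the GABA receptor gene Rdl by -0.53 ± 0.07 (adjusted p = 0.000715 and 0.000513). The pan-neuronal gene elav lay at 55.4 to 64.4 CPM in young and 42.7 to 58.5 CPM in old libraries, which overlap. The summed share of raw counts of the list was 0.365 to 0.377% in young libraries and 0.288 to 0.331% in old ones. Of 10 glial markers 3 fell, with the astrocyte gene alrm at -0.45 ± 0.09 (adjusted p = 0.00665); under library size alone 1 glial gene fell and 3 rose.

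Markers of other organs were mixed or near absent. In the gut list 5 of 25 tested rose and 3 fell, the maltase gene Mal-B1 rising from 72.6, 79.2 and 96.2 CPM to 147, 141 and 145 CPM (log2 change 0.80 ± 0.10, adjusted p = 0.000255); 3 rose without 15 d replicate 2 and 1 fell without 15 d replicate 3. Of 94 cuticle genes 15 could be tested and 35 had no count in any of the 6 libraries; 3 fell and 1 rose. The odorant-binding protein gene Obp44a fell by 1.07 ± 0.10 (adjusted p = 5.45e-05) and Obp19d rose from 61.7, 61.0 and 56.6 CPM to 149, 136 and 156 CPM (log2 change 1.30 ± 0.08, adjusted p = 2.96e-06). The testis list held at most 0.0152% of counts, in 45 d replicate 2, where loopin-1 read 15.8 CPM against 0.642 to 4.24 CPM elsewhere. Yolk protein genes were at 0.978 to 16.9 CPM, and lncRNA:roX1, which is made in males, at 661, 652 and 661 CPM and 482, 496 and 529 CPM (log2 change -0.39 ± 0.07, adjusted p = 0.00201).

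Gcn5, the lysine acetyltransferase at the centre of the series, changed by little. It read 66.0, 70.4 and 69.0 CPM at 15 d and 84.8, 94.6 and 77.1 CPM at 45 d (3L:12521129-12524014, minus strand), with no overlap, and its log2 change of 0.32 ± 0.09 passed the test (adjusted p = 0.0284). The call was lost in 5 of the 6 fits without 1 library; the adjusted p was 0.0807, 0.065 and 0.0852 without 15 d replicates 1, 2 and 3, and 0.0848, 0.11 and 0.0133 without 45 d replicates 1, 2 and 3. Of the other members of the SAGA and ATAC complexes, Hcf fell (-0.27 ± 0.07, adjusted p = 0.0261), in the fits without 1 library only where 45 d replicate 3 was left out (adjusted p = 0.0241), and none of the remaining 28 tested passed. Under library size alone 4 members of these complexes rose and none fell. Among other acetyltransferases and deacetylases 2 of 17 rose (11.8%, near the 8.48% over all genes). These were the cohesin acetyltransferase gene eco at 0.40 ± 0.08 (adjusted p = 0.00392) and HDAC6. HDAC6 lost its call in each of the 6 fits without a library, which left 1 gene that rose. His3.3A, a histone variant laid down outside replication, rose from 102, 98.5 and 105 CPM to 132, 133 and 136 CPM (log2 change 0.39 ± 0.07, adjusted p = 0.00247). Of 18 DNA repair genes 4 rose and none fell, with Ku80, which binds broken ends, at 14.8, 15.7 and 14.4 CPM and 36.5, 28.5 and 24.4 CPM (log2 change 1.01 ± 0.17, adjusted p = 0.0018) and the ribonucleotide reductase gene RnrL at 1.36 ± 0.20 (adjusted p = 0.000731); 2 rose without 45 d replicate 1. In nutrient signalling, Sesn, a stress-induced inhibitor of TOR, fell from 273, 271 and 273 CPM to 178, 183 and 189 CPM (log2 change -0.57 ± 0.07, adjusted p = 0.000269). Of 19 genes of insulin and TOR signalling 1 rose and 4 fell, against 5 up and 2 down with library size alone. On the TMM scale, 22.2% of the DNA repair genes and 5.26% of the insulin and TOR genes rose, and 21.1% of the latter fell. Over all genes 8.48% rose and 8.75% fell.

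The remaining lists gave few calls in number. Over all genes 8.48% rose and 8.75% fell, and the shares of these lists lay on both sides of that. Of 33 aminoacyl-tRNA synthetases 2 rose, of 12 unfolded protein response genes 2 rose, and of 20 subunits of the vacuolar proton pump 3 rose and 2 fell. Lysosomal genes had 1 up and 1 down of 12, the last being the regulator gene Mitf. Genes of JNK, JAK-STAT and injury signalling had 2 up and 1 down of 13, and genes of lipid droplets and fatty acid oxidation 2 up and 1 down of 17. None rose and 2 fell of 19 UDP-glycosyltransferases, and without 45 d replicate 3, 6 of that list fell. None rose and 3 fell of 13 ecdysone response genes. None rose and 1 fell of 12 basement membrane genes and of 7 dosage compensation genes, the last being lncRNA:roX1. Neuropeptide precursors had 1 up and 1 down of 13, activity-induced genes 1 up and 1 down of 4, odorant-binding proteins 3 up and 2 down of 15, and hemocyte and melanisation genes 1 up and 2 down of 10. Of 6 photoreceptor markers that could be tested 2 fell, of 5 genes of the female germline and yolk 2 rose, and of 12 genes of heterochromatin, lamins and replacement histones 2 rose. None of 2 lysozymes, 3 testis genes and 1 seminal fluid gene passed in edgeR's test, in DESeq2 or at an unadjusted p under 0.05. Most of these counts moved by more than 1.5 times when some library was left out. Under library size alone basement membrane genes had 1 up and none down, and ecdysone response genes 1 up and 1 down.

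**Figure D4:**
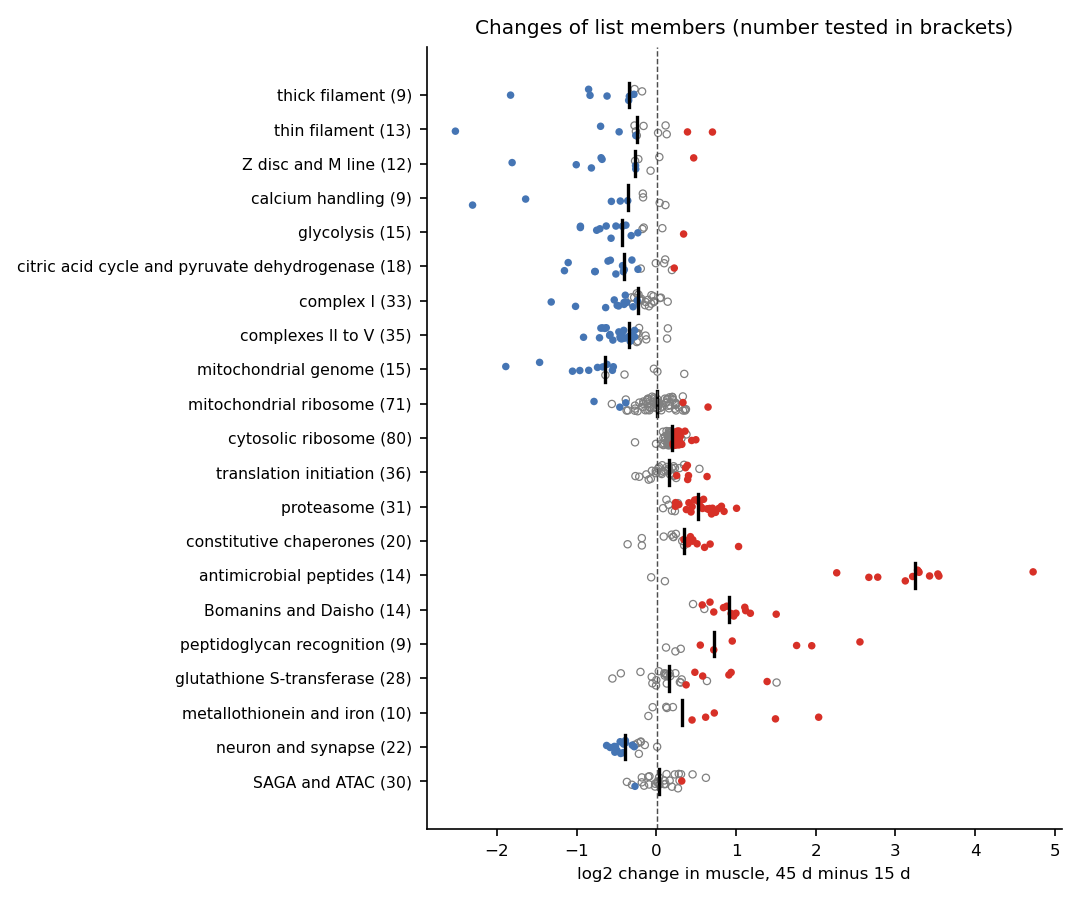
Log2 change in muscle from 15 to 45 d (x axis) of every tested member of 21 gene lists (y axis); red points rose and blue points fell at an adjusted p under 0.05, open points did not pass, black bars are list medians and the dashed line is the median of all genes (0.01). The antimicrobial peptides have a median of 3.25, the proteasome one of 0.52 and the mitochondrial genome one of -0.64.

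Outside these lists, the largest fall among named genes was in Oseg2, an intraflagellar transport gene of ciliated cells. Oseg2 read 11.2, 15.3 and 14.4 CPM at 15 d and 2.15, 1.58 and 2.25 CPM at 45 d, with 5.26, 3.29 and 2.33 CPM at 30 d (log2 change -2.75 ± 0.26, adjusted p = 5.57e-05). The neuropeptide-like precursor gene Nplp3 went from 42.2, 47.0 and 57.2 CPM to 10.2, 15.8 and 16.1 CPM (log2 change -1.82 ± 0.18, adjusted p = 5.57e-05). The gene Sgp read 407, 385 and 394 CPM and 148, 164 and 162 CPM (log2 change -1.32 ± 0.07, adjusted p = 2.07e-06), the receptor gene mthl4 changed by -1.43 ± 0.22 and the scavenger receptor gene ninaD, which takes up carotenoids, by -1.36 ± 0.20 (adjusted p = 0.000978 and 0.000771). No library of one age overlapped the other for any of these 5. Of the genes that changed at least 2-fold, 50 of 129 that rose and 26 of 67 that fell carry only a CG number and are not named.

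The change from 15 to 45 d was then compared with that of heads by testing muscle minus head in 1 fit of 12 libraries. In heads 438 of 8863 tested genes rose (4.94%) and 384 fell (4.33%). Of 9363 genes, the change was more positive in muscle for 88 (0.94%) and more negative for 149 (1.59%). The first count moved to between 30 and 58 in every fit without 1 library except that without head 45 d replicate 3 (118), and the second to 96, 97, 94, 99 and 235 without head 15 d replicates 1 and 2, head 45 d replicates 1 and 2 and muscle 15 d replicate 1. Among the latter were 9 of 15 glycolysis genes, 6 of 9 thick filament genes, 5 of 12 Z disc and M line genes and 5 of 15 transcripts of the mitochondrial genome. For SERCA the difference was -1.17 ± 0.11 on the log2 scale (adjusted p = 2.67e-05), with -0.45 in heads. For fln the head change was 0.78 and the difference -2.59 ± 0.46 (adjusted p = 0.00561), and for bt they were 0.31 and -1.14 ± 0.13 (adjusted p = 0.000172). Ald1 stood at -0.01 in heads with a difference of -0.92 ± 0.09 (adjusted p = 5e-05), and mAcon1 at -0.05 with -1.08 ± 0.09 (adjusted p = 1.72e-05). In the other direction, 14 of 31 proteasome genes rose by more in muscle, with Prosbeta5 at 0.12 in heads and a difference of 0.91 ± 0.12 (adjusted p = 0.000496). In edgeR's and DESeq2's tests no difference was detected for any of 15 antimicrobial peptide genes, none of which had an unadjusted p under 0.05; for the 14 above the median change in heads was 3.23. For Drs the difference was -0.56 ± 0.51 (adjusted p = 0.716) and for Dro 0.32 ± 0.97 (adjusted p = 0.94). No difference passed for the 22 neuronal markers either, of which 10 fell in heads, nor for the 80 ribosomal genes, of which 1 rose in heads; 2 and 8 of them had an unadjusted p under 0.05, and DESeq2 called none. A difference that did not pass does not show equal change.

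**Figure D5:**
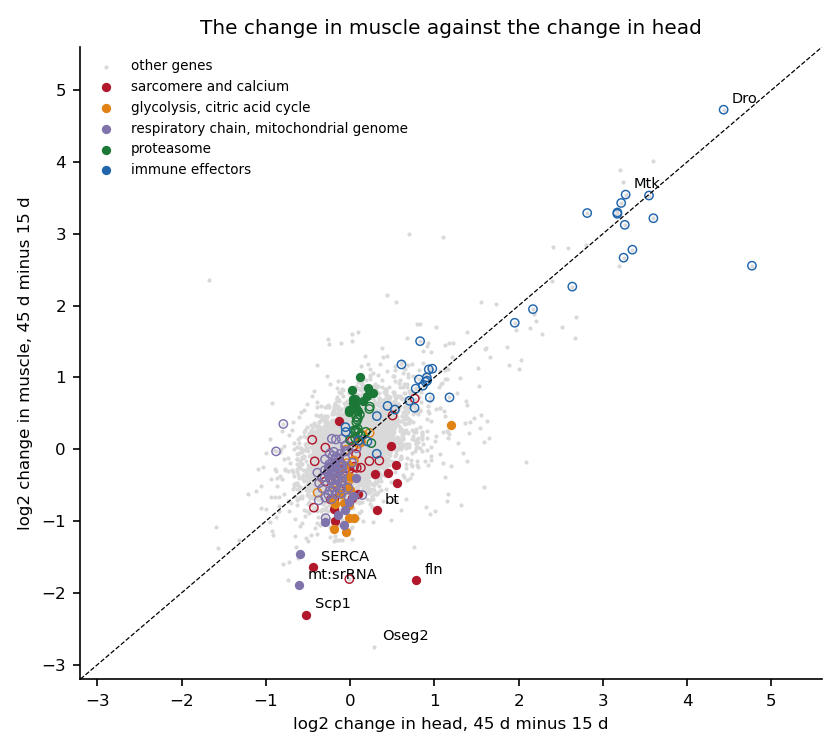
Log2 change from 15 to 45 d in muscle (y axis) against that in heads (x axis) for genes tested in both; the dashed line marks equal change, and list members are filled where the difference between tissues had an adjusted p under 0.05 and open where it did not. SERCA at -1.64 in muscle and -0.45 in heads lies below the line, and Prosbeta5 at 1.01 and 0.12 lies above it.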

How the data were processed

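RNA was measured as poly-A selected libraries, read as single ends of 100 nt. The deposited files hold raw counts per gene made by the authors, 1 file per library, with the tallies of unassigned reads on separate lines. Trim Galore (0.6.6), the aligner STAR (2.7.6a), the counter featureCounts (2.0.1) and the package DESeq2 appear among the tools of the submitters' processing notes, with no roles stated. The muscle files end in tallies of the htseq-count kind; the tool that counted them, their genome build and their strand setting were not given in the sources used here. Without a known strand setting, reads of overlapping antisense genes cannot be told apart. Coordinates and exon lengths (FlyBase r6.36) came from the header columns of the whole-fly table. Symbols came from a reference list of gene names, which matched 17358 of 17494 gene IDs (99.2%). List entries without an exact symbol were looked up among RefSeq synonyms.

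The 5 unassigned tallies were left out of library sizes and tests; in muscle at 15 and 45 d, reads in no gene took 1.87 to 2.75% and reads not uniquely aligned 6.0 to 36.6%. Genes with counts of at least 10 in 3 libraries and 15 in all were kept by edgeR's filter (edgeR 4.0.16, limma 3.58.1, R 4.3.3), scaled by TMM and tested with the quasi-likelihood test on the 6 muscle libraries, 45 d against 15 d, with Benjamini-Hochberg adjustment over all 8630 genes at 0.05. SE is the absolute log2 change over the square root of F. The muscle minus head difference was tested in a fit of 12 libraries. Gene counts totalled 3.00 to 3.68 M per library. CPM is the count per 1 M counts of the TMM-scaled library. DESeq2 1.42.0 and other scalings, filters, fits and left-out libraries were the alternatives.

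Named were the 12 largest rises and 12 largest falls (adjusted p under 0.05, mean log2 CPM of at least 3, no overlap between ages, a gene symbol), up to 4 members of each of 63 lists with the smallest p in the list's main direction, and Gcn5, Mhc, mt:lrRNA and the genes with most counts. Act57B, Act88F, Ca-alpha1D, FASN2, Hcf, Hsp68, Ldh, Lsp1beta, Marf, Men, Mlp60A, Obp19d, Prm, Rpt3, TpnC25D, Tps1, clu, elav, l(2)efl and sls were named after their values were seen. So were, among others, Mitf, mt:ND2 and the chromosome 4 genes named below other than bt. The comparison, its lists and these tests were chosen with earlier results of these data known. The list entries Ca-beta, Glyg, ScsbetaG1, Fum1, tam, BaraA2, Hop, Pdi, Tor, Prx6, Etf-QO, Nplp2 and nos matched no symbol and were not analysed here.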

Additional observations from a re-analysis of the deposited data

Results flagged for a closer look

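Of 256 named genes with a tested difference, 48 changed differently in muscle and head (adjusted p under 0.05 in edgeR's quasi-likelihood test of muscle minus head), 39 more negatively and 9 more positively in muscle. Over all 9363 genes, 1.59% changed more negatively and 0.94% more positively. The named genes were picked largely by their change or p in muscle, which is part of this difference. Their count therefore does not measure how common such differences are. The values below are those differences on the log2 scale.

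Among genes of contraction and calcium, the difference was -2.59 for fln, -1.77 for Scp1, -1.17 for SERCA, -1.14 for bt and -0.997 for TpnC41C. It was -0.81 for Fhos, -0.70 for Strn-Mlck, -0.69 for Obsc, -0.62 for Mf, -0.49 for Zasp52 and -0.45 for tmod. Among glycolysis and fuel genes it was -0.98 for Gpo1, -0.92 for Ald1, -0.65 for Gapdh1, -0.54 for Glyp and -0.48 for Pfk. In the citric acid cycle it was -1.08 for mAcon1, -0.89 for Ogdh, -0.75 for SdhA, -0.74 for muc, -0.66 for SdhB and -0.56 for Idh3a.

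For mitochondrial carriers it was -1.07 for Mpcp1, -0.77 for Ucp4A and -0.47 for sesB. In complex I it was -0.69 for ND-MLRQ and -0.46 for ND-51. Transcripts of the mitochondrial genome stood at -1.26 for mt:srRNA, -0.95 for mt:Cyt-b, -0.85 for mt:lrRNA, -0.77 for mt:CoI and -0.70 for mt:CoIII. Genes of other lists or none were Oseg2 at -3.02, Sgp at -2.17, mthl4 at -1.91, the capsid-like activity gene Arc1 at -1.46, Sesn at -0.92, the diacylglycerol kinase gene rdgA at -0.51 and foxo at -0.48.

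The genes with a more positive change in muscle were Prosbeta5 at 0.91, Prosalpha5 at 0.81, Rpn3 at 0.62 and Prosalpha3 at 0.54 of the proteasome, GstD9 at 0.87, GstD1 at 0.51, Trxr1 at 0.49, mRpS22 at 0.74 and CCT2 at 0.49. In data outside the gene counts, 36.6% of reads in 45 d muscle replicate 3 were tallied as not uniquely aligned, against 6.0 to 8.59% in the other muscle libraries of both ages.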

How the results depend on the processing

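With RLE factors, without mitochondrial genome genes, with no or a stricter filter on low counts, with a robust dispersion or with the 30 d libraries added, the counts of genes that rose and fell stayed within 1.5 times of 732 and 755, from 697 to 826 and from 730 to 865. With library size alone, 1619 rose and 429 fell. DESeq2 called 463 up and 541 down. With the 3 d and 30 d libraries in the fit, 82 rose and 68 fell. Leaving out 1 library gave 412 to 631 that rose and 487 to 705 that fell. For muscle minus head, leaving out mitochondrial genome genes gave 48 more positive and 223 more negative genes, DESeq2 gave 64 and 206, library size alone 112 and 111, and leaving out 1 library 30 to 118 and 94 to 235. The cause of these moves was not tested. Of 177 named genes with a call none changed sign. They were named largely for their change in the main fit, and the alternatives share its libraries. A change of sign was therefore unlikely from the outset. The number that lost the call was 4 with RLE factors, 18 with library size alone, 24 with DESeq2, 14 with a robust dispersion, 133 with all ages in the fit, and 13 to 36 without 1 library.

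Same-numbered libraries of both ages did not deviate together (correlations of -0.09, -0.05 and -0.18). With 3 libraries at each age, this check cannot exclude that libraries of the same number were handled together. With the replicate number as a block, 608 genes rose and 631 fell, and muscle minus head gave 84 and 148. At 3.00 M counts in the smallest library, genes under the filter could not be tested, which holds for 15 of the 21 photoreceptor markers.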

Other observations

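Genes of the small chromosome 4 fell more often than those of other arms. Of 78 tested 20 fell (25.6%) and 1 rose (1.28%), while 7.63 to 9.22% fell on 2L, 2R, 3L, 3R and X. The median log2 change was -0.22, and 35 of the 78 were lower in every old library than in any young one against 4 that were higher, where the shares over all genes were 16.9% and 17.4%. The genes that fell include bt, the myostatin relative myo, the kinase gene CaMKII, the Wnt pathway factor pan, the lysosomal regulator gene Mitf, ATPsynbeta and ND-49. In heads 6 of the 78 fell and 1 rose (4.33% and 4.94% over all genes), with a median of -0.08. The chromosome 4 genes had a median summed exon length of 4380.5 bases against 2114 to 2538 bases on the other arms. Their median level in log2 CPM was also higher than on 2L, 2R, 3L, 3R and X. The shares that fell or did not overlap were not compared among genes of matched level, so the part of level in them was not tested. Among genes longer than 3810 bases, 17 of 45 on chromosome 4 and 301 of 2099 elsewhere fell. Over the alternatives 14 to 21 fell, except with all muscle ages in the fit, where 1 did. This pattern was noticed in the data and no test of it was made.

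Exon length moved with the TMM-scaled change in muscle. With genes split into 4 equal groups by summed exon length, 13.8% rose and 5.83% fell in the shortest group (162 to 1364 bases), and in the longest (3810 to 71820 bases) 3.78% rose and 14.8% fell. The median log2 change ran from 0.12 through 0.06 and 0.00 to -0.08. In heads the medians ran 0.01, 0.02, -0.00 and -0.03. Under library size alone the longest group turned, with 248 genes up and 162 down instead of 81 and 318, and with all muscle ages in the fit it had 2 up and 9 down. Lists of short genes went both ways. The median exon length was 921.5 bases for cytosolic ribosome genes (26 rose, none fell) and 1393 bases for proteasome genes (25 rose, none fell), but 844 bases for complex I (none rose, 12 fell), 894 bases for complexes II to V (none rose, 22 fell) and 789 bases for the mitochondrial genome (none rose, 10 fell). Several lists of long genes had more falls than rises. The median was 7454 bases for calcium handling (none rose, 5 fell) and 7144 bases for neurons and synapses (none rose, 15 fell). It was 5356 bases for the thick filament (none rose, 7 fell) and 4817 bases for the Z disc and M line (1 rose, 7 fell). Fatty acid synthesis genes, at 4197.5 bases, went the other way (5 rose, 1 fell). The part of length in these changes was not tested.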
